A study of Jaculus jaculus with 13 samples.

Results

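The genes ENSJJAG00000019938 and ENSJJAG00000015692 are neighbours on scaffold JH725486.1 of the Jerboa genome assembly JacJac1.0, and both had more counts in kidneys collected after rehydration than in kidneys collected after dehydration. The pair was picked by identifier because of its levels after rehydration, so the values after rehydration are a description of the choice and carry no test. It makes up 2 of the 24433 genes in the count table, and both genes were among the 15064 genes whose counts averaged 8 or more and which entered the fit. For short, ENSJJAG00000019938 is called the upstream gene and ENSJJAG00000015692 the downstream gene, by their order along the forward strand. The count table does not pair these identifiers with gene names, so what either product does is not given here, and the genes are described by position, exon structure and level.

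RNA was taken from the whole left kidney of 13 wild-caught male Jerboas (Jaculus jaculus), a desert rodent, and sequenced after selection of poly(A) RNA. The 4 Control animals drank freely, the 4 Dehydrated animals went without water for 11 days, and the 5 Rehydrated animals went without water for 7 days and then drank freely for 3 days, as the sample labels state it. All animals were housed singly and ate dry pellets throughout, the labels name no genetic change, and their water supply before capture is unknown. For the restriction of the Dehydrated group and the days with water of the Rehydrated group, the study's methods give other lengths than the labels, and the Rehydrated group had the shorter restriction, so the return of water and the length of restriction cannot be told apart.

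When water is short, the mammalian kidney concentrates the urine. Vasopressin from the pituitary then brings the water channel AQP2 to the membrane of collecting duct cells, and cells of the medulla gather organic solutes such as betaine, which SLC6A12 carries, to withstand the salty surroundings. Once water returns, the urine is diluted again. A whole kidney holds all nephron segments together with vessels, stroma and immune cells, so a level is an average over many cell types, and a gene used by few cells at low abundance can reach only a low level. Here and below, fewer cells of a type and less RNA per cell cannot be told apart.

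Total counts per animal ranged from 14071802 to 22949762, with group medians of 21420737 in Control, 19201529 in Dehydrated and 17494755 in Rehydrated animals. Levels are given as CPM, a gene's counts scaled to a library of fixed size, with libraries made comparable by the trimmed mean of M values (TMM), and 3 counts corresponded to 0.133 to 0.21 CPM. As a check of the tissue, 5 kidney genes that the study pairs with identifiers were looked up, and all 5 were present in all 13 animals. AQP1, a water channel of the proximal tubule and thin descending limb, had means of 754, 925 and 491 CPM in Control, Dehydrated and Rehydrated animals. Every rehydrated animal (332 to 664 CPM) was below every control (706 to 821 CPM), a pattern found in 18.6% of the genes tested. The marker list for collecting duct principal cells held AQP2, AQP3, FXYD4 and SCNN1G, of which FXYD4 was not looked up, and other genes of these cells were not analysed here. AQP2 had 223, 626 and 189 CPM, AQP3 65.7, 217 and 68.7 CPM, and the sodium channel subunit SCNN1G 79.8, 108 and 128 CPM. SLC6A12 had 25.9, 82 and 44.3 CPM. The collecting duct water channels were highest in dehydration, which was not the order of either gene of the pair, and AQP1 was lowest after rehydration, where both genes of the pair had their highest means. SCNN1G had its highest mean after rehydration. The part of these shifts in the values of the pair was not tested. Markers of other cell types were not analysed here. The study names Control 1 and Rehydrated 1 as standing apart from their groups and reports that inflammatory genes were higher in both. The part of this in the values of the pair was not tested. The study also gives a lower RNA integrity for the Rehydrated group than for the others. The lower RNA integrity and the lower depth both move with the rehydration values below, and their part in them was not tested. Because Control 1 and Rehydrated 1 stood apart, the differences after rehydration are given with and without them. This does not address the integrity and depth of the whole Rehydrated group.

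The upstream gene runs from base 1025728 to 1035891 on the forward strand, a span of 10164 bases with 12 exons that hold 1585 bases. The downstream gene runs from base 1039866 to 1045722 on the same strand, a span of 5857 bases with 13 exons that hold 1620 bases after overlapping records were merged. The genes are 3974 bases apart, and no annotated gene overlaps either. On either side the nearest genes are farther away: ENSJJAG00000013445 (955191 to 958286, forward strand, 11 exons) ends 67441 bases before the upstream gene, and ENSJJAG00000022718 (1063961 to 1091895, forward strand, 9 exons) starts 18238 bases after the downstream gene. These were the 2 other genes that start within 100000 bases of the pair and served as the local background.

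The exons of the pair have partly the same lengths. Read from the 5′ end, 5 exons of the upstream gene had the same length as exons of the downstream gene in the same order: 45 bases (exons 3 and 4), 110 bases (exons 4 and 5), 156 bases (exons 5 and 6), 201 bases (exons 7 and 8) and 115 bases (exon 9 of both). The first 3 of these matches were consecutive. Of 1689 neighbouring pairs on one strand with at least 8 exons each, 161 (9.53%) matched in as many exons and 162 (9.59%) had as long a run, and the median pair matched in 1. By contrast, ENSJJAG00000022718 matched each gene of the pair in 1 exon and ENSJJAG00000013445 matched them in 0. Across 12177 genes, 1 gene other than the pair matched both in at least 5 exons. It was ENSJJAG00000019286, on the forward strand of scaffold JH725534.1 (1418804 to 1423593, 12 exons, 1485 exon bases), which matched the upstream gene in 5 exons and the downstream gene in 7. Equal exon lengths describe the annotation and not the sequence, which was not used here, so how far reads from one gene could be assigned to the other was not tested.

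**Figure D1:**
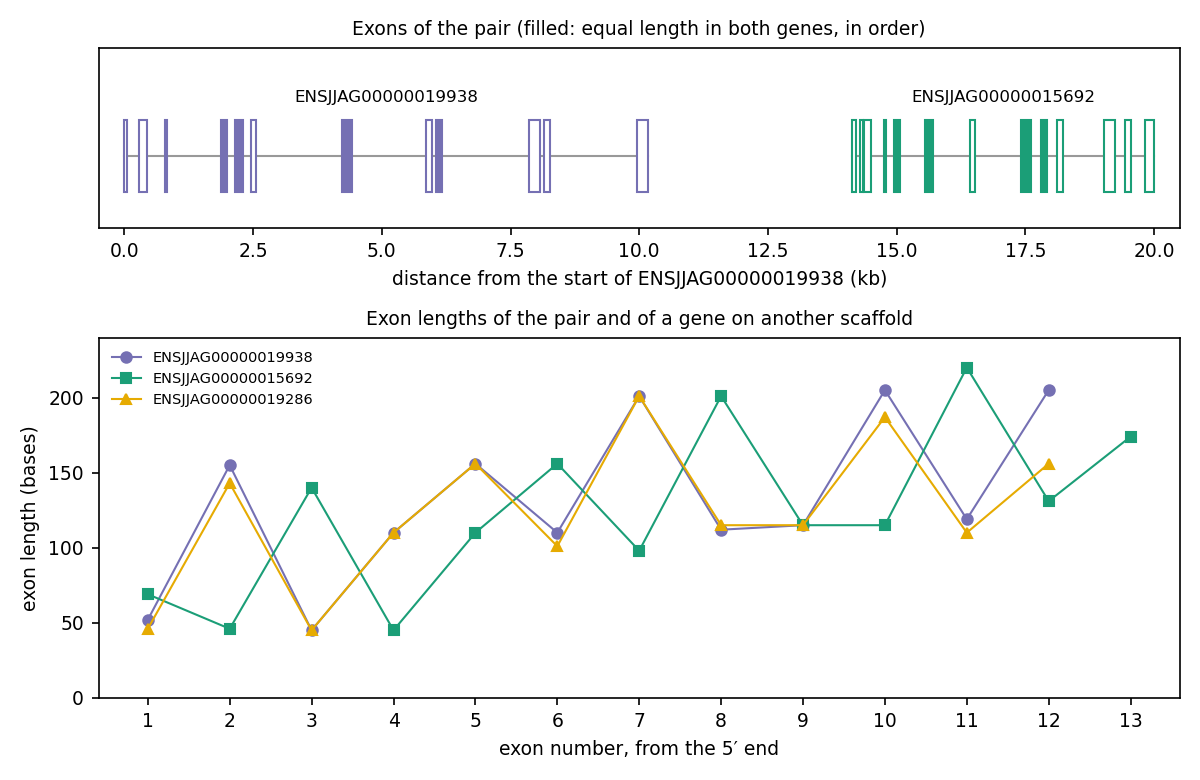
The upper panel maps the exons (boxes) of both genes by distance from the start of the upstream gene in kb, with filled boxes for the 5 exons of equal length in both. The lower panel plots exon length in bases against exon number for the pair and for ENSJJAG00000019286, whose line follows that of the upstream gene at exons 3, 4, 5, 7 and 9.

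The upstream gene had at most 2 counts in the kidney of any dehydrated animal and at least 81 in that of every rehydrated animal. It had 106, 2, 64 and 157 counts in Control 1, 3, 4 and 6, which are 4.7, 0.0887, 3.15 and 8.2 CPM. In Dehydrated 2, 3, 5 and 6 it had 2, 0, 1 and 0 counts, all under 3 counts and therefore at the limit of what these libraries can show. In Rehydrated 1, 2, 4, 7 and 8 it had 305, 145, 81, 267 and 140 counts, or 19, 7.37, 4.58, 18.7 and 8.23 CPM. All 5 rehydrated animals lay above all 4 dehydrated animals, whereas Rehydrated 2 and 4 lay below Control 6, and Rehydrated 4 also below Control 1, so the rehydrated and control groups overlapped. Among controls, animal 3 was as low as the dehydrated animals, and the other 3 were well above them. The mean level was 4.04 ± 3.37 CPM in Control (SD, n = 4), 0.0383 ± 0.049 CPM in Dehydrated (SD, n = 4) and 11.6 ± 6.77 CPM in Rehydrated animals (SD, n = 5).

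The downstream gene was present in every animal and had similar values in dehydrated and control animals. Its counts in the controls were 76, 125, 159 and 187, which are 3.37, 5.55, 7.84 and 9.77 CPM. The dehydrated animals had 149, 184, 171 and 130 counts, or 7.64, 9.46, 8.66 and 6.6 CPM, all inside the range of the controls. After rehydration the counts were 1037, 789, 1658, 1354 and 360, or 64.5, 40.1, 93.7, 94.7 and 21.2 CPM. The lowest rehydrated animal, Rehydrated 8, was above every control and every dehydrated animal. The group means were 6.63 ± 2.78 CPM (SD, n = 4), 8.09 ± 1.24 CPM (SD, n = 4) and 62.8 ± 32.5 CPM (SD, n = 5) in Control, Dehydrated and Rehydrated animals.

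**Figure D2:**
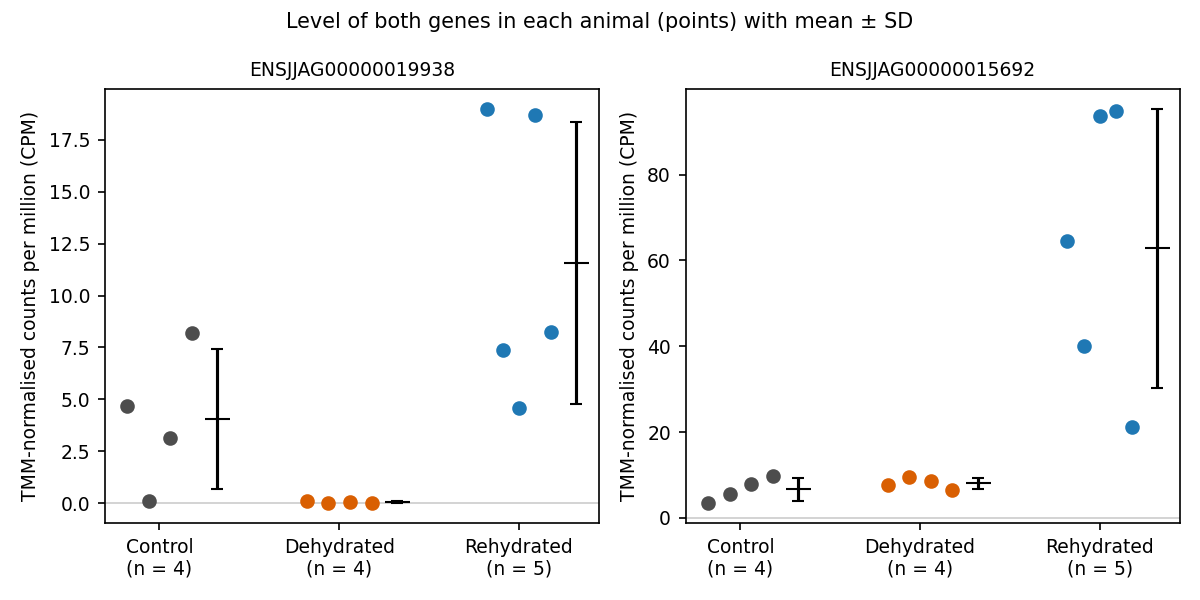
TMM-scaled CPM of the upstream gene (left) and the downstream gene (right) in each animal (points), with the mean and SD of each group (bars). The upstream gene sits at 0 to 0.102 CPM in dehydrated animals, and the downstream gene at 21.2 to 94.7 CPM in rehydrated animals, above all others.

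Per kilobase of exon, so that the genes can be set side by side, the level of the downstream gene was higher in each group mean. The upstream gene had 2.55 ± 2.13 CPM per kb in controls, 0.0242 ± 0.0309 in dehydrated and 7.3 ± 4.27 in rehydrated animals, and the downstream gene 4.09 ± 1.71, 4.99 ± 0.767 and 38.8 ± 20.1 (SD; n = 4, 4 and 5). The order of the group means differed between the genes. The upstream gene had its lowest mean in dehydration, and for the downstream gene control and dehydration did not differ beyond their spread. Whether the genes differ in their change with dehydration was not tested.

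Dehydration compared to control asks what the pair did before water returned. It compares no rehydrated animal, but these animals were in the same fit and so enter its SE, interval and p. The dehydrated and control animals also entered the differences the pair was chosen for, so the comparison is not independent of the choice. For the upstream gene the fitted log2 fold change was −6.49 (SE 1.24, 95% interval −9.17 to −3.81), which ranked 3 from the lowest of 15064 genes. It ran from −5.89 without Control 6 to −7.45 without Dehydrated 2. It did not pass the threshold of 0.01 in edgeR's quasi-likelihood test (Benjamini-Hochberg adjusted) (adjusted p = 0.0144). Control 3 overlapped the dehydrated animals, while in 10.3% of the genes tested every dehydrated animal was below every control. Leaving out Control 3 removes the control that overlaps, and without it the log2 fold change was −6.91 and passed in the same test (adjusted p = 0.0032), which is given as a sensitivity and not as support. Without any 1 of the 12 other animals the change was not called (edgeR adjusted p of 0.011 to 0.0461). In edgeR with only the 2 groups in the fit, the log2 fold change was −6.52 (adjusted p = 0.0211). With the Wald test of DESeq2 on all animals it was −6.74 (adjusted p = 1.62e-05). Over the 20 alternative settings the adjusted p ranged from 1.62e-05 to 0.0622. For the downstream gene the log2 fold change was 0.29 (SE 0.43, 95% interval −0.63 to 1.21), and edgeR's quasi-likelihood test (Benjamini-Hochberg adjusted) did not call it (adjusted p = 0.713, and 0.504 to 0.974 over the alternatives). In all, 0.478% of the genes tested were called in this comparison (0.312% higher and 0.166% lower). Of the pair 0 of 2 were called, and they were at an unadjusted p of 0.000156 (upstream) and 0.505 (downstream).

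Because the upstream gene had only 3 counts in all 4 dehydrated animals together, the ratio of its pooled counts is also given, with the error that counting alone gives. Control over Dehydrated gave a ratio of 102 with a counting interval of 34.5 to 496, and Rehydrated over Dehydrated gave 289 with an interval of 98.7 to 1410. For the downstream gene, whose counts were high in every group, the same ratios were 0.8 (0.712 to 0.898) and 7.58 (6.98 to 8.25). These intervals cover counting error only and leave out the spread between animals, which was wider.

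After rehydration compared to control, the downstream gene stood at 9.5 times the control level in the fit, a log2 fold change of 3.25 (SE 0.43). All 5 rehydrated animals were above all 4 controls, a pattern found in 15.5% of the genes tested in this comparison, and the gene ranked 10 from the highest of 15064 between genes at 3.31 and 3.22. The upstream gene had a log2 fold change of 1.52 (SE 0.72), 2.87 times the control level, at rank 189, with overlapping groups. It ranged from 1.09 without Control 3 to 2.12 without Control 6. Without Control 1 and Rehydrated 1, the log2 fold change was 3.02 for the downstream gene and 1.35 for the upstream gene. As a backdrop, 28.8% of all genes tested were called in this comparison, 12.5% higher and 16.2% lower. Of the pair, the downstream gene alone was thus higher in every rehydrated animal than in every control.

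After rehydration compared to dehydration, the upstream gene had the highest fitted log2 fold change of the 15064 genes at 8.01 (SE 1.21), next to 7.94 for the gene at rank 2. The value rests on 3 dehydrated counts and went to 8.96 without Dehydrated 2, which held 2 of them, and the rank in other settings was not computed. The downstream gene followed at rank 32 with 2.96 (SE 0.43), or 7.76 times the dehydrated level, between genes at 3.04 and 2.89. For both, every rehydrated animal was above every dehydrated animal, which held for 9.05% of the genes tested. In this comparison 8.19% of the genes were called, 2.68% higher and 5.5% lower. Without Control 1 and Rehydrated 1 the log2 fold changes were 7.75 and 2.95. The upstream gene was also the only gene of the 24433 in the table with at most 3 counts in every dehydrated and at least 10 in every rehydrated animal, and it remained the only one with a minimum of 75. This too describes values that chose the gene.

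**Figure D3:**
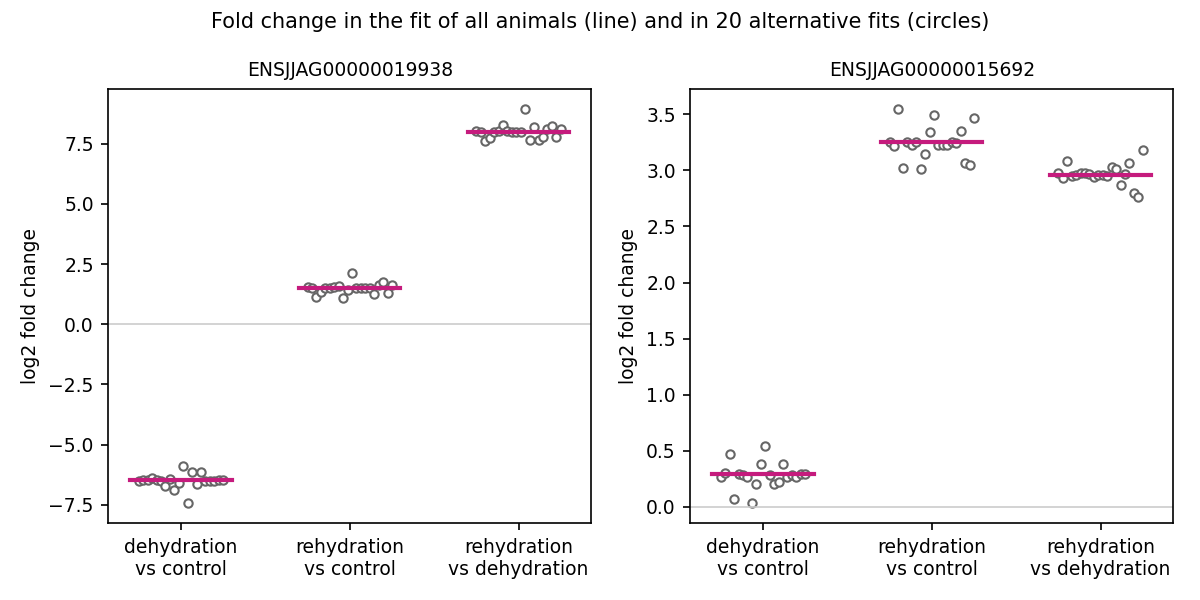
Fitted log2 fold change of the upstream gene (left) and the downstream gene (right) for the 3 comparisons (horizontal axis), in the fit of all animals (line) and in 20 alternative settings (circles). The sign was the same in every setting, and the downstream gene stayed between 0.03 and 0.54 for dehydration compared to control.

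The pair did not keep a fixed ratio. Of the counts assigned to either gene, the upstream gene held 58.2%, 1.57%, 28.7% and 45.6% in Control 1, 3, 4 and 6. The share was 1.32%, 0%, 0.581% and 0% in the dehydrated animals and 22.7%, 15.5%, 4.66%, 16.5% and 28% in Rehydrated 1, 2, 4, 7 and 8. It varied most among controls, and every rehydrated animal exceeded every dehydrated one. Pooled over animals the share was 37.6% in Control (34.3% to 40.9%, 329 counts of the upstream and 547 of the downstream gene), 0.471% in Dehydrated (0.0972% to 1.37%, 3 and 634 counts) and 15.3% in Rehydrated animals (14.4% to 16.2%, 938 and 5198 counts), with exact binomial 95% intervals that cover counting error only.

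**Figure D4:**
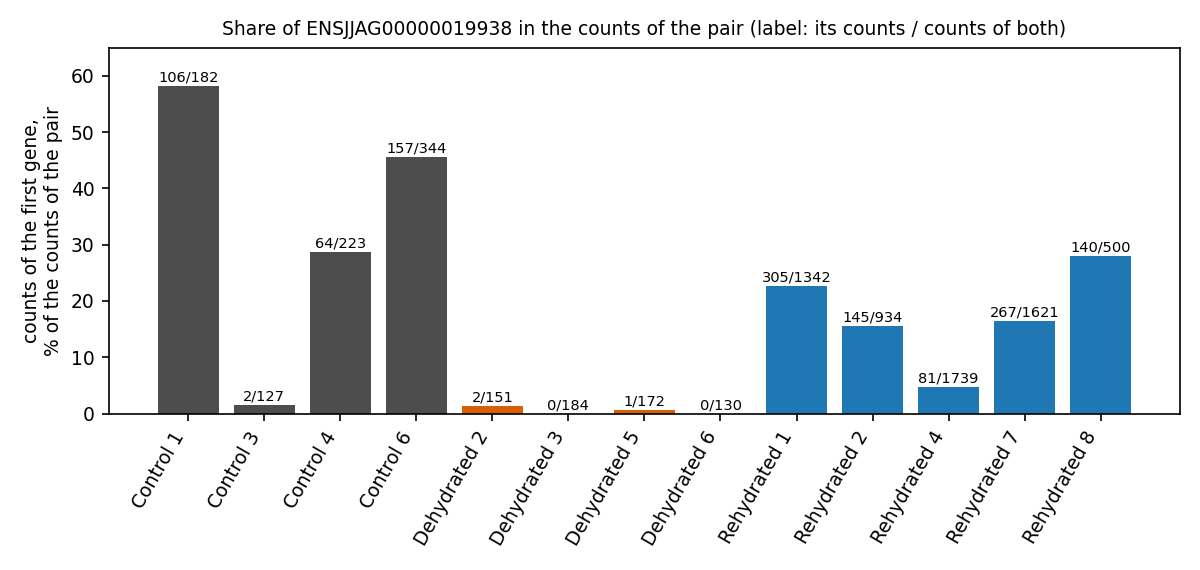
Counts of the upstream gene as a percent of the counts of the pair in each animal, with the counts above each bar. The dehydrated animals lie at 0% to 1.32%, the rehydrated animals at 4.66% to 28%, and the controls at 1.57% to 58.2%.

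The order of the rehydrated animals was not the same for both genes. From the highest to the lowest, the upstream gene ran Rehydrated 1, 7, 8, 2 and 4, and the downstream gene 7, 4, 1, 2 and 8. Rehydrated 4 was thus last for the upstream and second for the downstream gene. Over the 13 animals, the correlation between log2 CPM of the genes was r = 0.612, and it was 0.155 once the group means were taken out. The points share the group differences that chose the genes, so these are descriptions. Ranked by likeness to the upstream gene, the downstream gene came at place 565 of 15063, and the upstream gene at place 2470 by likeness to the downstream gene.

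Both genes varied between animals of a group more than most genes, without matching for level, on which such spread also depends. The SD of log2 CPM within groups was 1.61 for the upstream gene, above 98.5% of the genes tested, and 0.695 for the downstream gene, above 89.3%, beside a median of 0.248. For the upstream gene it was 2.63 in controls, 0.771 in dehydrated and 0.891 in rehydrated animals. Control 3 had a log2 CPM of −2.82, beside 2.25, 1.68 and 3.05 in Control 1, 4 and 6. It enters both the 2.63 and the 1.61, which were not computed without this animal. As a coefficient of variation of CPM, the spread of the upstream gene was 83.6%, 128% and 58.5% in the same groups. Which group was the most uneven thus depends on the scale, and the dehydrated values rest on 0 to 2 counts. The coefficient of variation of the downstream gene was 41.9% in Control, 15.4% in Dehydrated and 51.7% in Rehydrated animals.

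Neither of the genes on either side of the pair was called in any comparison. ENSJJAG00000022718, downstream of it, had 37.7 ± 1.52 CPM in Control (SD, n = 4), 34.8 ± 2.74 in Dehydrated (SD, n = 4) and 37.7 ± 2 in Rehydrated animals (SD, n = 5). Its log2 fold change was −0.11 (95% interval −0.28 to 0.05) for dehydration and 0 (−0.16 to 0.16) for rehydration compared to control, and 0.11 (−0.05 to 0.27) for rehydration compared to dehydration. ENSJJAG00000013445, upstream of it, was uneven between animals, with an SD of log2 CPM within groups of 1.82. It had 6.51, 7.05, 1.18 and 8.05 CPM in the controls, 0.461, 3.81, 8.15 and 21.7 CPM in the dehydrated animals, and 3.73, 5.39, 0.283, 7.14 and 2.76 CPM in the rehydrated animals, and all 3 groups overlapped. Its log2 fold changes in the same order were 0.58 (−1.36 to 2.52), −0.57 (−2.43 to 1.3) and −1.15 (−3 to 0.71), intervals that leave room for changes in either direction. In edgeR's quasi-likelihood test (Benjamini-Hochberg adjusted), 0 of these 2 genes were called, 0 passed an unadjusted p of 0.05, and DESeq2 also called 0. Of all genes tested, edgeR called 0.478%, 28.8% and 8.19% in the same order of comparisons. At an unadjusted p under 0.05 in the edgeR fit were 24.2%, 51.3% and 37.9%. Without Dehydrated 6 the values of ENSJJAG00000013445 went from 0.58 to −0.46 for dehydration compared to control and from −1.15 to −0.11 for rehydration compared to dehydration. The median log2 fold changes of the 2 genes, 0.23, −0.28 and −0.52 beside 0, 0.03 and 0 over all genes tested, therefore rest largely on that gene and, where dehydration enters, on that animal.

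Along the whole scaffold, 98 genes were listed and 64 tested, of which 62 were not of the pair. For dehydration compared to control 0 of these 62 were called, beside 0.478% of all genes, and 14 (22.6%) were at an unadjusted p under 0.05 in the edgeR fit, beside 24.2% of all genes. For rehydration compared to control 6 were called higher and 8 lower (22.6% beside 28.8% of all genes), and for rehydration compared to dehydration 2 were called lower (3.23% beside 8.19%). Their log2 fold changes spanned −1.71 to 1.07, −1.51 to 0.95 and −1.15 to 0.94 in the 3 comparisons. The rehydration values of the downstream gene, 3.25 and 2.96, and those of the upstream gene, 1.52 and 8.01, were outside these ranges. The pair was chosen for its levels after rehydration, so this describes the choice.

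**Figure D5:**
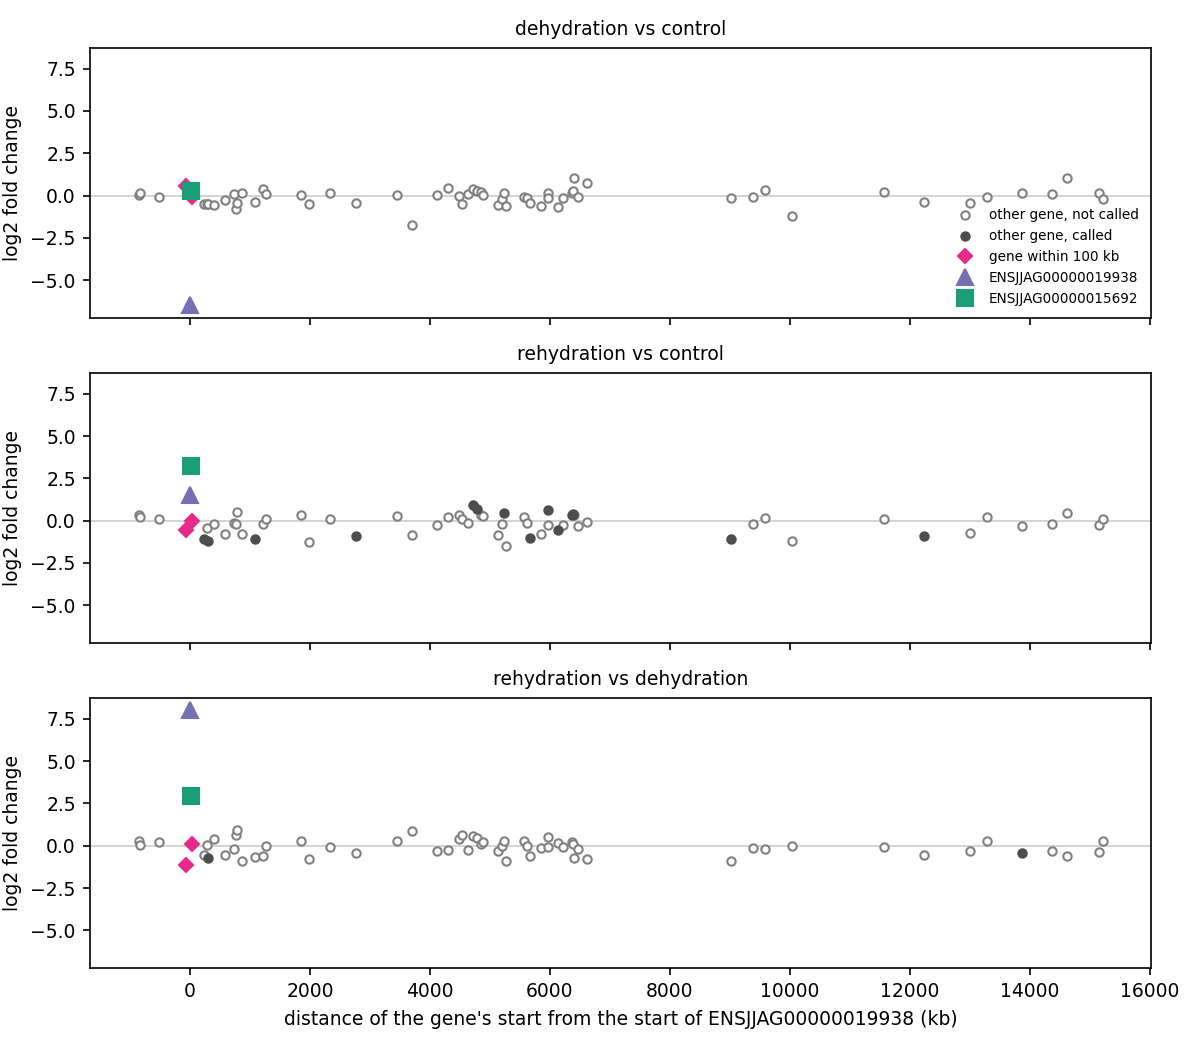
Log2 fold change (vertical axis) of each tested gene on the scaffold against the distance of its start from that of the upstream gene in kb, 1 panel per comparison. The 62 other genes span −1.71 to 1.07 for dehydration and −1.51 to 0.95 for rehydration compared to control. For rehydration compared to dehydration they span −1.15 to 0.94. In the same order, the upstream gene lies at −6.49, 1.52 and 8.01, and the downstream gene at 0.29, 3.25 and 2.96.

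The gene on another scaffold that shares exon lengths with both, ENSJJAG00000019286, was also measured. Its levels were 3.94, 4.44, 3.7 and 3.4 CPM in controls, 6.05, 4.78, 6.03 and 5.48 CPM in dehydrated animals, and 4.67, 6.25, 7.07, 7.91 and 5.23 CPM in rehydrated animals. All dehydrated and all rehydrated animals were above all controls, which held for 8.82% and 15.5% of the genes tested. For rehydration compared to control its log2 fold change was 0.68 (SE 0.17), which edgeR's quasi-likelihood test (Benjamini-Hochberg adjusted) called (adjusted p = 0.00639). That call was lost in 10 of 20 alternative settings, including those without any 1 of the 4 controls, and the adjusted p ranged from 0.00089 to 0.147. For dehydration compared to control it was 0.53 (SE 0.18, adjusted p = 0.0937 in the edgeR fit), and for rehydration compared to dehydration 0.16 (SE 0.17, adjusted p = 0.538). It was singled out by exon lengths after its values could be seen, and its change was smaller than that of the downstream gene of the pair (3.25), a difference that was not tested.

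Genes whose levels followed those of the pair most closely lay on other scaffolds. For the upstream gene, ENSJJAG00000022581 (JH725495.1, 7461179 to 7461549) had r = 0.926 in log2 CPM over the 13 animals, with group means of 0.728, 0.408 and 1.09 CPM in Control, Dehydrated and Rehydrated animals. That gene was low throughout and was called in no comparison. The upstream gene's log2 CPM in the dehydrated animals and Control 3 rests on 0 to 2 counts, far below the other animals. Next came ENSJJAG00000000083 (JH725549.1, 5044539 to 5045634) with r = 0.883 and means of 30.7, 17.3 and 48.4 CPM. For the downstream gene, ENSJJAG00000011818 (JH725559.1, 2946119 to 2976063) had r = 0.948 with group means of 13.2, 13.5 and 17.3 CPM, and ENSJJAG00000021297 had r = 0.946 with 17.4, 19 and 23.4 CPM. The fifth best r was 0.865 for the upstream and 0.935 for the downstream gene, and 1 and 39 genes were over 0.9. These genes were picked for following genes that were themselves chosen for their levels after rehydration, and the points share the group means, so their levels are descriptions with no test. With the group means taken out, the best r was 0.892 for the upstream gene and 0.88 for the downstream gene, in each case with a gene on another scaffold.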

How the data were processed

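The authors trimmed the reads, mapped them with Rsubread to JacJac1.0 and counted them over Ensembl genes with featureCounts (Subread 1.6.2, per the submitters' processing notes, which also list FastQC 0.11.5 and DESeq2 1.36.0). The deposited table holds raw counts per gene and animal. Per the file header no strand option was set, so antisense reads cannot be told apart. The study describes 5 animals per group, and 2 columns without a labelled sample were not used. The labels give no batch or date.

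Genes whose counts averaged 8 or more (15064 of 24433) entered 1 fit of all 3 groups, TMM-scaled, by the quasi-likelihood test of edgeR 4.0.16 (R 4.3.3, limma 3.58.1), with Benjamini-Hochberg adjustment over all genes and calls at an adjusted p under 0.01. Log2 CPM used a prior count of 1. DESeq2 1.42.0 was an alternative, with its size factors, no count minimum, a threshold of 0.05, only the groups compared, the animal number as a block, and animals left out. Scripts were tested on simulated data, and Python 3.11.15, numpy 2.4.6, pandas 2.3.3 and matplotlib 3.10.9 were also used. Exons overlapping within a gene were merged before their lengths were compared in order.

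In all 22 pairs of animals within groups, chi-square divided by its degrees of freedom was 24.8 to 71, above what counting alone gives, so each animal was 1 replicate. Genes were named by a rule: the pair, the local genes within 100000 bases, and the genes most correlated with each member, and ENSJJAG00000019286 was added after its values could be seen. The members, lists and tests were chosen with earlier results of these data known. The only names used here were those of the kidney genes looked up above, which the study pairs with identifiers. Neither gene of the pair was among them, and the gene lists and promoter motifs that need further symbols or sequence were not used.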

Additional observations from a re-analysis of the deposited data

Results flagged for a closer look

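The local gene ENSJJAG00000013445 had 1 control animal far from the others. Control 4, at 1.18 CPM beside 6.51, 7.05 and 8.05 CPM, was separated from the nearest of them by 0.888 of the range of the controls in log2 CPM, above Dixon's critical value of 0.829 for 4 samples. It was 1 of 15 groups of values examined, and chance marks about 1 group in 20. The upstream gene of the pair, which lies nearest to it, was at 3.15 CPM in the same animal, between the other controls.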

How the results depend on the processing

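Each of the 6 differences of the pair kept its sign in all 20 alternatives. For the upstream gene, −6.49 in dehydration compared to control ran from −7.45 to −5.89 without single animals and was called in 3 settings: a threshold of 0.05 (−6.49), DESeq2 (−6.74) and without Control 3 (−6.91). Its 8.01 in rehydration compared to dehydration ran from 7.64 to 8.96 without single animals, the highest without Dehydrated 2, which held 2 of the 3 counts of its group. Animals share only a number (mean r of deviations 0.119 over 5 same-numbered pairs, −0.0107 over 51 others), and with the number as a block the upstream gene had −6.47 (adjusted p 0.0622 in edgeR), 1.14 and 7.62, and the downstream gene 0.47, 3.55 and 3.08 (dehydration and rehydration against control, then rehydration against dehydration). The fit with the block estimates a term per number and so leaves fewer degrees of freedom. Dehydrated 5, Rehydrated 7 and Rehydrated 8 share their number with no other animal and add nothing to its group differences. In that fit ENSJJAG00000013445 turned to −0.72, 0.03 and 0.75. It also turned without Dehydrated 6 (−0.46, range without single animals −0.46 to 0.95, for dehydration against control). ENSJJAG00000022718, at 0 for rehydration compared to control, went to −0.02 with no count minimum and with only the groups compared, −0.01 with the block, −0.03 without Control 1 and Rehydrated 1, and −0.05 to 0.02 without single animals. The local genes had 0 calls in all settings. Calls over all genes for dehydration compared to control went from 72 to 0 with the block, 141 without Control 1 and Rehydrated 1, 157 with only the groups compared, 894 at 0.05, 958 with DESeq2 and 1 to 235 without single animals. For rehydration compared to control they went from 4331 to 987 with the block and 6563 at 0.05, and for rehydration compared to dehydration from 1233 to 0 with the block, 313 with only the groups compared, 2785 with DESeq2, 3614 at 0.05 and 380 to 2005 without single animals. The cause of these changes was not tested. A level under 3 counts, as the upstream gene had in every dehydrated animal, does not show that the gene was off.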
